A study of Mus musculus with 24 samples.

Results

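Titin (Ttn) and 8 genes whose proteins sit at or bind to the Z-disc (Nebl, Ldb3, Csrp3, Actn2, Tcap, Myoz2, Ankrd1 and Pdlim5) were followed through cardiac differentiation by their accessible sites. A peak was given to one of these genes when its summit lay inside the gene body in mm10, or when the summit lay in no protein-coding gene and the gene's body was the nearest, within 50 kb. By this rule 287 of 518537 peaks in 12 lists belonged to the 9 genes, 200 of them inside the gene bodies. Merging overlapping peaks of all lists gave 128693 regions, of which 80 were sites of these genes. The genes were chosen by name, with earlier results of these data known.

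The cells were A2lox.cre mouse embryonic stem cells, an established line built for inducible transgenes, and the labels name no transgene or drug that differed between time points. ATAC-seq, in which a transposase tags accessible DNA, was run on 24 samples, with 2 biological replicates for every one of the 12 time points. The first time point was culture in 2i, the medium with a pair of kinase inhibitors that holds stem cells in a naive state. The others were D0 to D8 of differentiation, 1 per day, and D10 and D15, the last labelled the cardiomyocyte stage. All time points come from this 1 line, and its labels do not say how pure the cultures were. Each time point has 1 list of peaks for both replicates, so no value below has a spread between replicates and no difference between time points was tested.

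The Z-disc is the boundary of the sarcomere, where thin filaments of neighbouring sarcomeres are cross-linked. Titin is a giant spring protein that runs from the Z-disc to the middle of the sarcomere, and the Z-disc proteins anchor it, bundle actin or carry stretch signals. Promoters and enhancers of active genes are usually accessible, but an accessible site near a gene need not act on it.

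Promoter sequences are shown for the 4 genes whose start was called in some lists only (Ttn, Ldb3, Csrp3 and Ankrd1), with Actn2, called throughout, for contrast. They are the 250 bases before the gene start listed by RefSeq for assembly GRCm38.p6, written 5′ to 3′ on the minus strand. The windows are chr2:76982548-76982797 for Ttn, chr14:34588682-34588931 for Ldb3, chr7:48848052-48848301 for Csrp3, chr19:36119845-36120094 for Ankrd1 and chr13:12340733-12340982 for Actn2. Capitals mark matches to GATA (A or T, then GATA, then A or G), TEAD (CATTCC), MEF2, the SRF CArG box or TATAAA on either strand.
Ttn: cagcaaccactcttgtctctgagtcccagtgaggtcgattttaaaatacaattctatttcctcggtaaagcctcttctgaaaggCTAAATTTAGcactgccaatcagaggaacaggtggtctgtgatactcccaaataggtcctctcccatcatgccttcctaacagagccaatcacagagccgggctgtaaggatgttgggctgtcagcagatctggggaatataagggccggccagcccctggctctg
Ldb3: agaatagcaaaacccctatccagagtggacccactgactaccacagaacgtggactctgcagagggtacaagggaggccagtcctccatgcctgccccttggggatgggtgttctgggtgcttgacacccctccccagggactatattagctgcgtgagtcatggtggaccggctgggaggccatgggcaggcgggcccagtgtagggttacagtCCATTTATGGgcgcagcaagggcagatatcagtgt
Csrp3: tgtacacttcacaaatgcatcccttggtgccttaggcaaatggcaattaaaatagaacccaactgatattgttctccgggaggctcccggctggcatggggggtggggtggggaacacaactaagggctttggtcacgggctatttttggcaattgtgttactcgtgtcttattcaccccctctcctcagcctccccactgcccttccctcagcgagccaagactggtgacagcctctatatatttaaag
Ankrd1: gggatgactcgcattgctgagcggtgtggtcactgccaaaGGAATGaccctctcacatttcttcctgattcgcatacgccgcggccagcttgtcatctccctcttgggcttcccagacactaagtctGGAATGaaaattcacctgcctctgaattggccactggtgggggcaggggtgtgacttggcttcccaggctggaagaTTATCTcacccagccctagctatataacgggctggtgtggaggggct
Actn2: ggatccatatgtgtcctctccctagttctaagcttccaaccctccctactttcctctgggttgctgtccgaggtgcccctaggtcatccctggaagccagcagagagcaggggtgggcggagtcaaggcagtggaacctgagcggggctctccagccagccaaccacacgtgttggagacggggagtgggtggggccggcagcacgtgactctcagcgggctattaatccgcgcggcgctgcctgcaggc

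The capitals fall in 3 of these 5 windows. Ttn held 1 match to MEF2, a muscle transcription factor motif, 166 bases before the start, and 2.48% of 21045 mouse promoters of this length held one. Ldb3 held 1 CArG box, the motif of serum response factor, 35 bases before the start, and 1.4% of promoters held one. Ankrd1 held 2 TEAD matches, 210 and 123 bases before the start, and 1 GATA match 47 bases before it. TEAD matches occurred in 11.6% of promoters and GATA matches in 23.6%. Csrp3 and Actn2 held none of these, and TATAAA, found in 11.7% of promoters, was in none of the 5.

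E-boxes (CANNTG) and the NKX2-5 core (AAGTG) were searched too but are not capitalised, since 62.8% and 39.6% of promoters hold them. Csrp3 had 4 E-boxes and 1 NKX2-5 core, Actn2 had 3 E-boxes, and Ttn and Ankrd1 had 1 E-box each. Of the promoters not printed, that of Myoz2 held 1 GATA match, 1 MEF2 match, 2 E-boxes and 1 NKX2-5 core, and those of Nebl and Pdlim5 held 1 E-box each. GC content was 50% for Ttn, 51.2% for Csrp3, 55.6% for Ankrd1, 58.4% for Ldb3 and 63.2% for Actn2, and the median over all promoters was 55.6%. The peaks called at these starts covered all 250 bases printed for Ttn, Ldb3, Ankrd1 and Actn2, and 233 of the 250 for Csrp3. These matches describe the letters in each window and do not show binding.

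The starts of the genes divided into 3 patterns over the 12 lists. A start counted as called when a summit lay within 1 kb of a listed gene start, and 8 of the 9 genes have a listed start. Nebl, Actn2 and Pdlim5 were called at the start in every list, 3 of 8, against 48.4% of 17274 protein-coding genes. Myoz2 was called at the start in no list, 1 of 8, against 29.2% of genes. Ldb3, Csrp3, Ankrd1 and Ttn were called at the start in some lists of D1 to D8 and at none of 2i, D0, D10 and D15. That is 4 of 8, against 5.69% of genes.

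The start of Ldb3 was called in the 4 lists from D5 to D8, that of Ankrd1 at D5, D7 and D8, that of Csrp3 at D6, D7 and D8, and that of Ttn at D7 only. The number of genes called at the start was thus 3 in each list from 2i to D4, 5 in the D5 and D6 lists, 7 in the D7 list, 6 in the D8 list, and 3 again in the last lists. Over all 17274 genes the share called at the start ranged from 54.1% at D1 to 65.9% at D7, and was 58.3% at 2i and 58.5% at D15. D7 was the longest list, with 66993 peaks. When each list was limited to its 31324 strongest peaks, or to those whose −log10 q reached 5, the Ttn start was lost and 3 of 8 genes had this pattern. Under both settings the Ankrd1 start also lost D8. The Csrp3 start lost D7 with lists of equal length and D6 under the q threshold, and the Nebl start lost D15 under the q threshold, leaving 11 lists. Leaving out the D7 list also left 3 of 8 genes with this pattern. With a summit asked for within 500 bp of a start, the Csrp3 start lost D6 and 4 genes kept the pattern. Shares over all genes under these settings are not given.

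**Figure D1:**
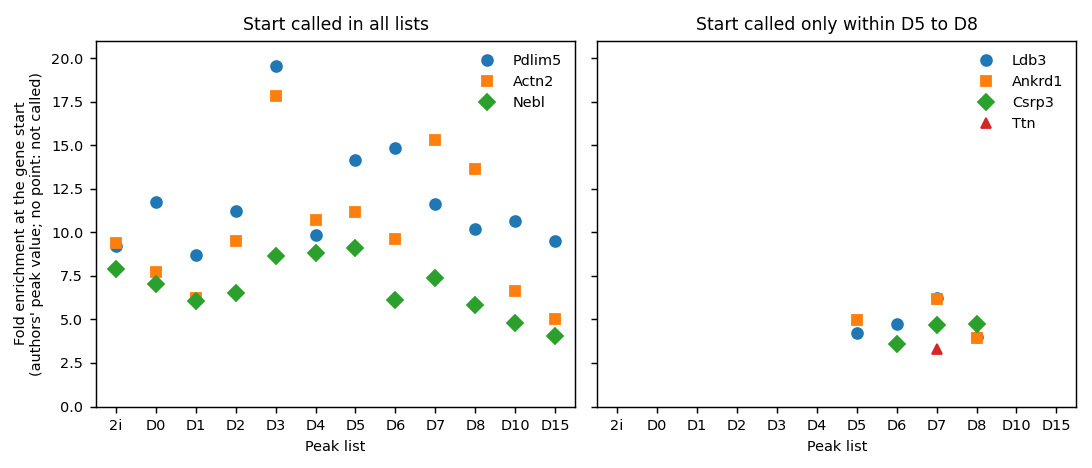
Fold enrichment over background (linear y axis, the authors' value) of the peak at the gene start in each list (x axis, 2i to D15), with no point where the start was not called. Pdlim5, Actn2 and Nebl, on the left, have a point in all 12 lists, and Ldb3, Ankrd1, Csrp3 and Ttn, on the right, have points only between D5 and D8, from 3.29 to 6.23.

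Titin has a body of 279 kb at chr2:76703980-76982557, and 21 peaks fell to it, in 9 sites and 8 lists. No list at D2, D3, D10 or D15 held a Ttn peak. The peaks numbered 2 in each of the lists 2i, D0 and D1, then 5, 4, 1, 4 and 1 in the lists from D4 to D8. The peak at its start (chr2:76982369-76982825), at D7, had a fold enrichment over background of 3.29, as the authors' peak caller gave it. It stood above 14.4% of the peaks in that list, so it was among the weaker ones.

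The strongest Ttn site lay inside the gene, 29.3 kb downstream of the start (chr2:76952925-76953574). It was called from D4 to D7, with fold enrichments of 4.19, 7.09, 3.34 and 7.03. At D7 this was above 68.2% of the peaks in the list. A second internal site, 54.2 kb downstream, was called at D4 and D5 with 3.33 and 5.24. One more, 177 kb downstream (chr2:76805100-76805937), was called at 2i, D0 and D1 with 6.24, 5.16 and 5.61 and in no later list. Between the start and these, a site 13.5 kb downstream (chr2:76968854-76969300) was called at 2i with 3.81 and again at D4, D7 and D8 with 5.72, 5.21 and 3.95. One 2.29 kb downstream was called at D1, D4 and D7 with 4.86, 4.97 and 2.98. Some internal sites of Ttn were thus called in early lists only, some in middle lists only, and these 2 in both.

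Titin was also sparse in sites for its length. It had 2.87 sites per 100 kb inside its body, and Nebl, at 392 kb the longest of the 9, had 3.57. Over 763 protein-coding genes of 200 to 500 kb the median was 5.14, with quartiles of 3.36 and 7.24, so Ttn lay below the lower quartile and Nebl within the quartiles. Actn2 with 11.2 and Ldb3 with 15.7 lay above the upper quartile of 8.36 for the 3951 genes of 50 to 200 kb, and Pdlim5 with 7.05 lay within those quartiles.

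Actn2 encodes α-actinin-2, the main actin cross-linker of the Z-disc in striated muscle. Its start (chr13:12340181-12341302) was called in all 12 lists, with fold enrichments from 5.04 to 17.8 and a median of 9.55. Set against the other peaks of the same list, it stood above 93.5% at 2i, 97.1% at D7, 66.7% at D10 and 47.4% at D15. It thus had a place among the stronger peaks in the 2i and D7 lists and a middle place at D15. The other 7 sites of Actn2 were called in few lists. One 41.3 kb inside the gene was called at D4 and D5 with 3.43 and 4.89, and one 20.2 kb inside at D7 and D8 with 4.69 and 4.22.

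Nebl encodes nebulette, the cardiac member of the nebulin family that binds actin at the Z-disc. The same gene also gives LIM-nebulette, a protein with wider expression that starts further upstream. The listed starts used here include 4 for Nebl, and only the outermost of these was called, in all 12 lists. The Nebl body reaches chr2:17734949, further upstream, and that end was not examined as a start. The site at the outermost listed start (chr2:17730047-17731818) had fold enrichments from 4.06 to 9.11 with a median of 6.78. It stood above 85.5% of peaks at 2i and 28.2% at D15. A site 10.7 kb upstream of it (chr2:17741384-17742803) was also called in all 12 lists, between 3.88 and 9.56.

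Inside Nebl the sites differed between early and late lists. A site 207 kb from the outermost start (chr2:17523574-17524561), 2.2 kb from an internal listed start, was called from D5 to D15 and in no earlier list. Its fold enrichments in these 6 lists were 11.2, 5.56, 11.9, 9.72, 4.84 and 7.25, the last above 73.6% of that list. A site 2.24 kb from another internal start (chr2:17460219-17460951) was called at D4, D5, D7 and D8 with 3.05, 8.95, 9.90 and 5.27. Near the remaining internal start, a site 1.49 kb away (chr2:17671267-17671910) was called at 2i, D0, D1 and D4, between 3.81 and 6.11. Each internal start thus had a site within 2.24 kb, called in its own set of lists.

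The far end of Nebl had both lost and gained sites. One 18.1 kb past the end of the body (chr2:17324074-17324773) was called in each list from 2i to D3, with fold enrichments from 4.48 to 8.15. One 3.84 kb past the end was called at 2i, D0 and D1, between 4.24 and 5.07. One 25.5 kb past the end (chr2:17316757-17317160) was called only at D10 and D15, with 3.70 and 3.84, above 23.9% and 22.6% of those lists.

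Ldb3 encodes Cypher, also called ZASP, a PDZ and LIM protein that binds α-actinin and is found mainly in striated muscle. It had 54 peaks in 10 sites, and at least 2 in every list. The Ldb3 body reaches chr14:34590314, upstream of both listed starts, and that end was not examined as a start. Its start (chr14:34588335-34588939) gave fold enrichments of 4.21, 4.72, 6.23 and 4.01 in the lists from D5 to D8, above 29.2%, 44.2%, 62.0% and 37.1% of each list. A site 14.5 kb inside (chr14:34573668-34574397) was called in the same 4 lists with 4.74, 3.95, 4.20 and 3.65. A site 3.14 kb inside was called at D5, D7 and D8 with 4.67, 4.06 and 2.79. These 3 sites were the transient ones of Ldb3.

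The remaining strong sites of Ldb3 kept other times. One 39.3 kb inside (chr14:34548447-34549963) was called in all 12 lists, between 5.30 and 11.1, while the start itself was called in 4. One 47.8 kb inside (chr14:34540492-34541207) was called in the 6 lists from D0 to D5, with 7.22, 5.61, 6.78, 12.4, 4.19 and 5.36, and in none after D5. D5 was the only list that held both this site and the start.

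Pdlim5 encodes ENH, a PDZ and LIM protein that binds α-actinin and is also made outside muscle. Its start (chr3:142394689-142396149) was called in all 12 lists, with fold enrichments from 8.68 to 19.6 and a median of 10.9. It stood above 86.6% to 99.1% of the peaks of each list. A second listed start of Pdlim5 was called in no list.

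Away from the start, Pdlim5 had the most sites of the 9 genes, 21, of which 11 were called in 1 list only. A site 46.6 kb inside (chr3:142348582-142349529) was called from 2i to D3, with 10.6, 7.98, 6.29, 7.80 and 6.60, and stood above 97.1% of the 2i list. Upstream, a site 38.8 kb away was called at 2i and D0 with 5.07 and 3.40. A neighbouring site 34.4 kb upstream (chr3:142429658-142430557) was called in the 6 lists from D4 to D10, with 5.84, 5.86, 6.95, 12.2, 8.88 and 5.23. One 44.1 kb upstream (chr3:142439591-142440070) was called from D6 to D15, with 3.89, 6.37, 5.58, 3.61 and 5.30. Inside the gene, a site 57.6 kb from the start was called at D3 and D4 with 3.44 and 8.23. Another, 114 kb from the start, was called at D4, D7 and D8 with 6.74, 3.91 and 3.69. At the edge of the 50 kb window, one 48.1 kb upstream was called in 7 lists between D1 and D10, from 3.08 to 7.74. Within a stretch upstream of this gene, sites of early, middle and late lists therefore lay side by side.

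Myoz2 encodes calsarcin-1, which binds calcineurin and α-actinin in heart and slow muscle. Its only site lay 19.4 kb upstream (chr3:123054191-123054656) and was called at D5, D7 and D8 with 4.32, 4.95 and 3.69. No site lay inside its body of 28.8 kb.

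Tcap encodes telethonin, which caps the end of titin at the Z-disc. It had no peak in any list. The nearest summit lay between 4.67 kb (D3) and 15.4 kb away, and in all 12 lists it was assigned to the neighbouring gene Pgap3. The body of Tcap is 1.14 kb long, and no start of it was examined.

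Csrp3 encodes muscle LIM protein, which is found at the Z-disc and in the nucleus of heart and slow muscle cells. The peak at its start (chr7:48848069-48848812) lay upstream of the start and was called at D6, D7 and D8 with fold enrichments of 3.61, 4.66 and 4.75. A site near the far end of the gene, 17.4 kb inside (chr7:48830430-48831003), was called from D5 to D8 with 8.28, 3.61, 7.39 and 4.58, above 71.9% of the D5 list. A site 2.44 kb inside (chr7:48845211-48846039) was called at D7, D8, D10 and D15 with 5.14, 3.32, 3.00 and 3.66. It was the only Csrp3 site in the last 2 lists, where it stood above 7.3% and 19.3% of peaks. It also lay 1.94 kb upstream of a second listed start of Csrp3, a start that was called in no list. A site 12.8 kb inside was called at 2i and D0 only, with 7.06 and 5.26.

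Ankrd1 encodes CARP, an ankyrin repeat protein that binds titin and is induced by mechanical load. Its start (chr19:36119778-36120480) had fold enrichments of 4.94 at D5, 6.20 at D7 and 3.95 at D8. A site 9.98 kb upstream (chr19:36129190-36130331) was called in the 6 lists from D4 to D10, with 9.34, 9.45, 10.7, 12.8, 9.56 and 6.99. It stood above 90.4% of peaks at D4, 92.0% at D7 and 69.6% at D10. The upstream site was therefore called in the list before the start was first called, at D6 when the start was not, and at D10 when it no longer was. Ankrd1 had no peak at D15.

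**Figure D2:**
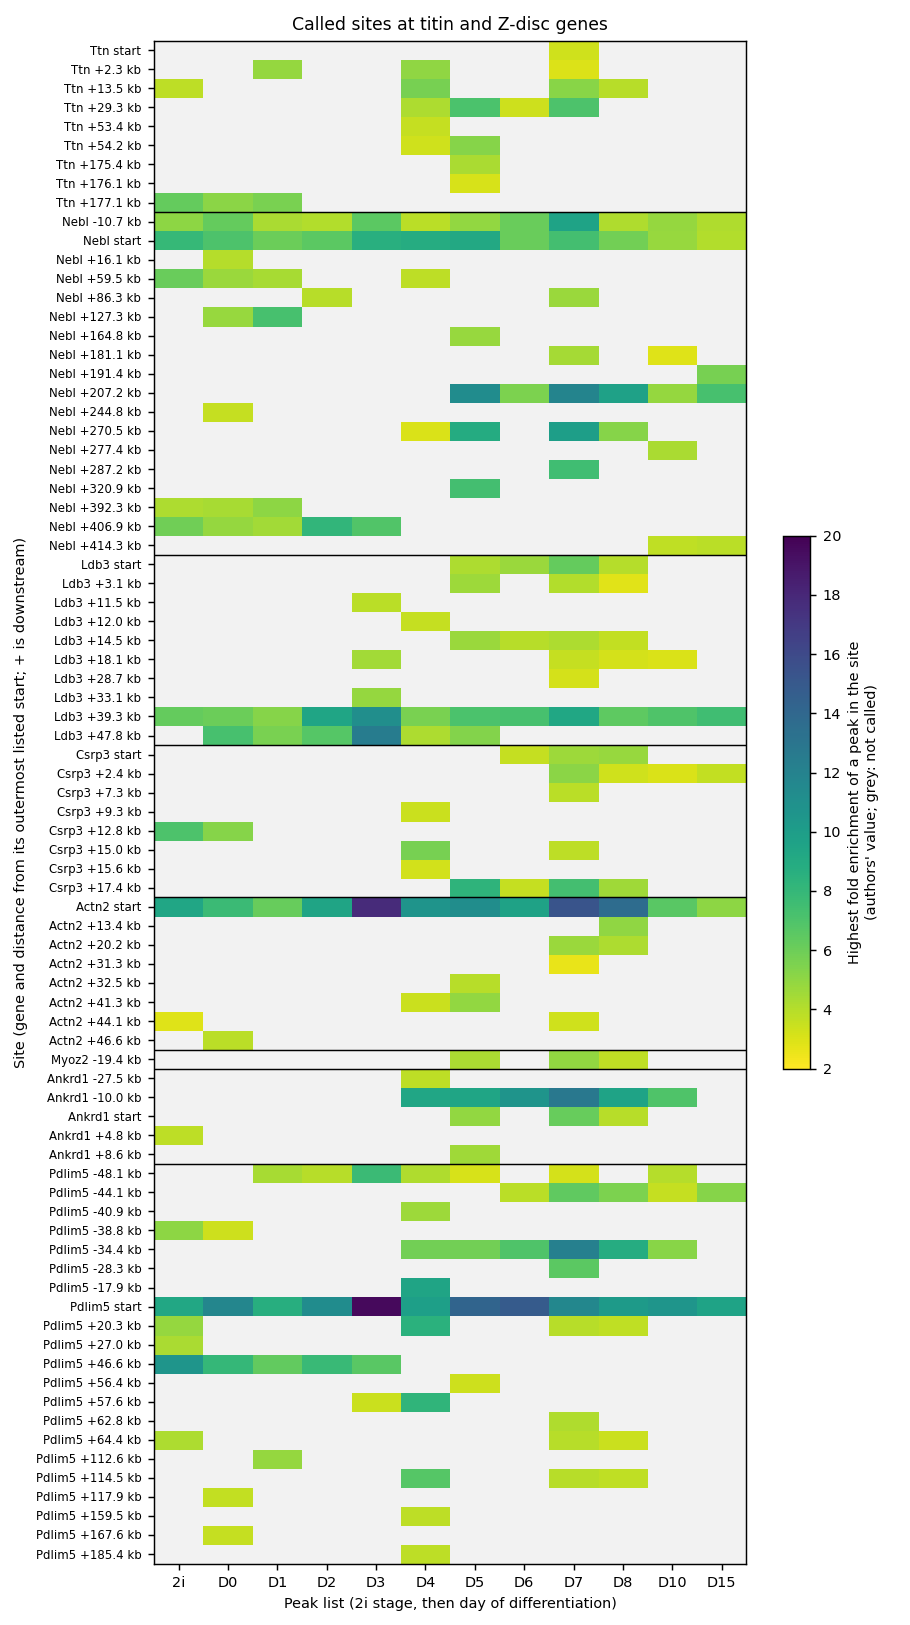
The 80 sites of the 8 genes with peaks, by gene and by distance in kb from the outermost listed start (rows, negative upstream), against the 12 lists (columns). Colour gives the highest fold enrichment of a peak in the site, as the authors gave it, and grey cells were not called; the starts of Nebl, Actn2 and Pdlim5 fill all columns, while 36 rows have 1 coloured cell.

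Several sites of different genes had identical patterns over the 12 lists. The start of Ldb3 and the internal sites of Ldb3 at 14.5 kb and of Csrp3 at 17.4 kb were called exactly from D5 to D8, as were 0.605% of all regions. The Ankrd1 start, the Ldb3 site at 3.14 kb and the Myoz2 upstream site were called exactly at D5, D7 and D8, as were 0.866% of regions. The Ankrd1 site 9.98 kb upstream and the Pdlim5 site 34.4 kb upstream shared the run from D4 to D10, found in 0.186% of regions. In the early lists, the Pdlim5 site at 46.6 kb and the Nebl site 18.1 kb past the end shared the run from 2i to D3, found in 0.842% of regions. The Ttn site at 13.5 kb and a Pdlim5 site at 20.3 kb shared calls at 2i, D4, D7 and D8 only, found in 0.0451%. Patterns of 1 list were shared by the most sites: D4 only by 9 (12.1% of regions), D5 only by 7 (2.4%) and D7 only by 7 (7.26%). Some further shared patterns are not listed.

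Among whole-gene starts, 5 other genes had the pattern of Ldb3, and Actc1, cardiac actin, was the one of them in the lists of muscle genes used here. The pattern of Ankrd1 was shared with 11 other genes, that of Csrp3 with 13 and that of Ttn with 75, none of them in those lists. Myoz2, called at the start in no list, shared that with 5036 genes, among them Myh6, Myl2, Myl3, Tnni3 and Tnnc1 of the heart muscle filaments.

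Grouped by time, the 80 sites divided much as all regions did. Transient sites, with a call in 2 or more neighbouring lists between D1 and D8 and none in the first or last pair of lists, numbered 14 (17.5%, 95% Wilson interval 10.7 to 27.3), against 14.7% of all regions. Late-gained sites, called at D10 and D15 and at neither 2i nor D0, numbered 4 (5%, 1.96 to 12.2), against 3.8%. Early-lost sites, the reverse, numbered 7 (8.75%, 4.3 to 17), against 9.56%. Sites called in all 12 lists numbered 5 (6.25%, 2.7 to 13.8), against 8.62%. Sites called in 1 list only numbered 36 (45%, 34.6 to 55.9), against 43.7%. The intervals cover counting error only, and each holds the share of all regions. Without the D7 list 9 sites were transient, and the share of all regions without that list is not given.

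The late-gained sites were 2 of Nebl, 1 of Csrp3 and 1 of Pdlim5. Ttn, Ldb3, Actn2, Myoz2, Ankrd1 and Tcap had none. The early-lost sites were 3 of Nebl, 2 of Pdlim5, 1 of Ttn and 1 of Csrp3. The 14 transient sites were spread over all 8 genes with peaks. Of the 5 sites called in all lists, 3 lay within 1 kb of a listed start, against 70.4% of all regions called in all lists. Over all 80 sites 7 lay at a start, against 9.68% of all regions.

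**Figure D3:**
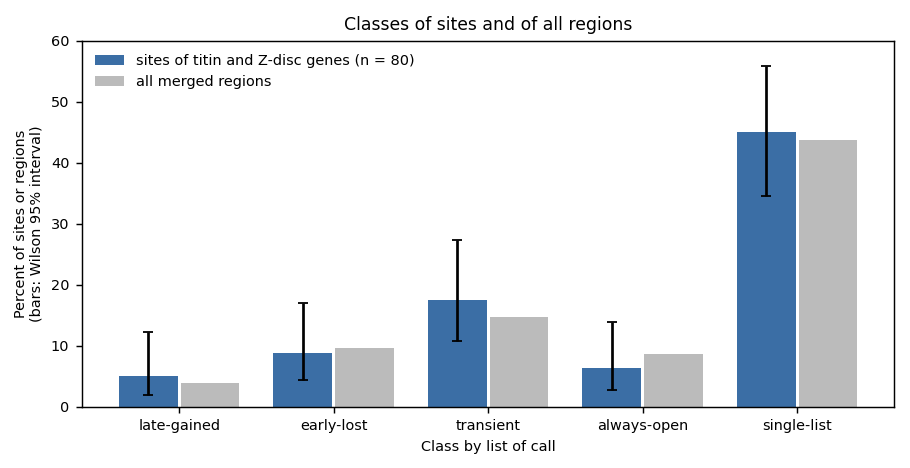
Share of sites (y axis, percent, from 0) in each class of calls over the 12 lists, for the 80 sites of the titin and Z-disc genes and for all 128693 merged regions. Error bars on the gene sites are 95% Wilson intervals for counting error, and each interval holds the share of all regions.

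Gains and losses of sites from D3 to D10 are given with the shares of all regions beside them. Steps before D3 and after D10 are not listed. From D3 to D4, 21 sites were called anew, 72.4% of those at D4, and 57.7% of all regions at D4 were new. At this step 5 sites were lost (38.5%), against 40.6% of regions. From D4 to D5, 14 were gained, 51.9% of those at D5, against 33.1% of regions, and 16 were lost (55.2%), against 48.9%. From D5 to D6, 15 of 27 were lost (55.6%), against 40.2% of all regions. The 2 gained there were 14.3% of those at D6, against 19.5% of regions. From D6 to D7, 24 were called anew, 63.2% of those at D7, against 57.3% of regions. None of the 14 sites called at D6 was lost at this step, while 11.7% of all regions were. From D7 to D8, 1 was gained, 4% of those at D8, against 12.8% of regions. In the same step 14 were lost (36.8%), against 31.8%. From D8 to D10, 14 of 25 sites were lost (56%), against 48.6% of all regions, and 4 were called anew, 26.7% of those at D10, against 11.3% of regions. By first call, 17 sites (21.2%) began at D4, against 17.2% of regions, and 14 (17.5%) at D5, against 6.78%. At 2i 18 sites (22.5%) were present, against 31.7% of regions.

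Peaks of the 9 genes made up 0.434 per 1000 peaks at 2i, from 20 of 46032 (95% Wilson interval 0.281 to 0.671). The share was lowest at D2, 0.356 (0.212 to 0.597), and highest at D5, 0.808 (0.581 to 1.12). It was 0.687 at D7 (0.515 to 0.916), 0.541 at D8 (0.377 to 0.776), 0.582 at D10 (0.373 to 0.909) and 0.386 at D15 (0.23 to 0.648). The intervals of D2 and D5 overlap slightly, and those of 2i and D15 overlap for most of their length. By number the genes had 46 peaks at D7 and 14 at D2 and D15. In cultures of mixed cells, fewer cells of a type and less accessibility per cell cannot be told apart.

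**Figure D4:**
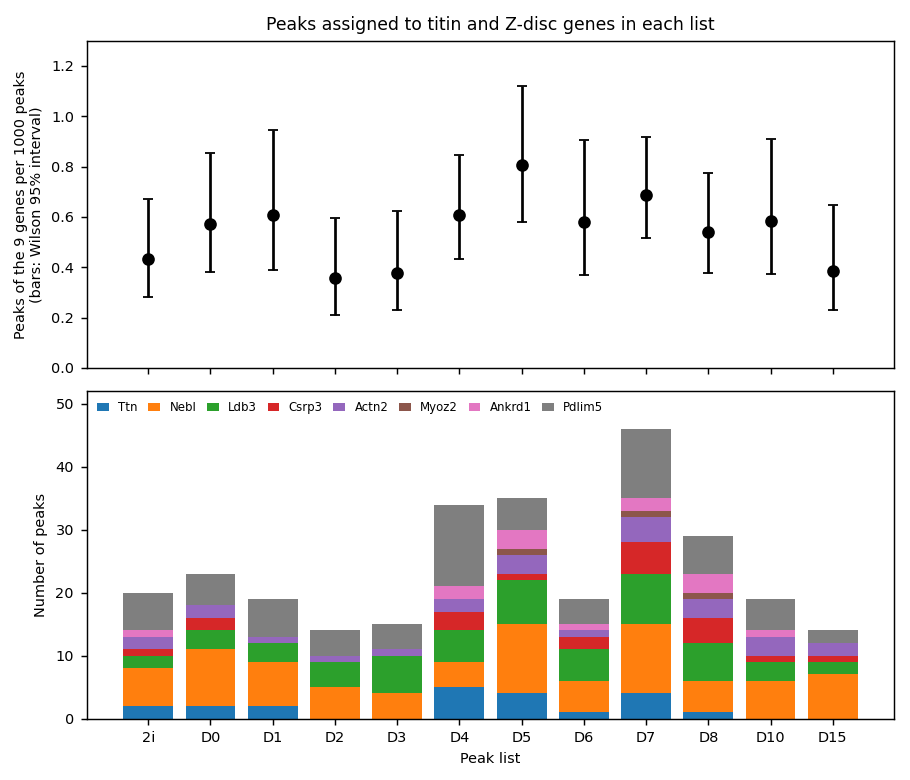
Peaks of the titin and Z-disc genes in each list (x axis, 2i to D15). The upper panel gives peaks of the 9 genes per 1000 peaks of the list, with 95% Wilson intervals for counting error, and the lower panel the number of peaks, stacked by gene; D7 has the most peaks, 46, and D5 the highest share, 0.808 per 1000.

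The lists also differed in how firmly a peak of a given size was called. Peaks with a fold enrichment of 4.9 to 5.1 had a median −log10 q of 5.26 at 2i, 6.17 at D0 and D2, 6.44 at D1, 9.26 at D3 and 5.31 at D4. In the lists from D5 to D8 it was 6.30, 8.07, 7.46 and 8.14 in turn, and it reached 8.57 at D10 and 8.96 at D15. The start peaks of Ldb3, Ankrd1, Csrp3 and Ttn were missing at D10 and D15. Peaks near a fold enrichment of 5 had smaller q-values in those lists than in each list from D5 to D8. The difference from D6 and D8 was small. Most start peaks of these genes were below 4.9, such as 3.29 for Ttn at D7, and peaks of that size were not compared. Of the early lists from which these starts were missing, D3 also had smaller q-values than D5 or D7, D1 had smaller ones than D5 only, and 2i, D0, D2 and D4 had larger ones than both. The part of list length and depth in the calls was not tested. A site absent from a list was not called there, which does not show that it was closed.

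Cell type markers were checked at their starts. Of 5 naive stem cell genes with a listed start, 5 were called at 2i, 3 at D0, 4 at D1 and 5 at D2 and D3. Then 4 were called in each list from D4 to D8, 3 at D10 and 2 at D15. Klf4 and Tfcp2l1 were called in all 12 lists. Of 6 cardiomyocyte genes, 1 was called at 2i, 4 at D5, D7 and D8, and 2 at D10 and D15, namely Tnnt2 and Ryr2, and Ryr2 was called in every list. Myh6, the main myosin of the mouse heart, was called at the start in no list, Nppa only at D5 and D7, and Nkx2-5 not after D8. The D10 and D15 lists thus carried as many of these cardiomyocyte starts as D2 and D3, and fewer than each list from D5 to D8. Over all genes, the share called at the start was 58.3% at 2i, 63.3% at D5, 65.9% at D7, 59.3% at D10 and 58.5% at D15. Of the fibroblast genes with a listed start, Col1a2 was called from D1 to D15 and Postn from D7 to D15. Of the smooth muscle genes, Acta2 was called from D5 to D15, and Cnn1 at D2, D3 and D5 to D8 but not at D10 or D15. Skeletal muscle genes gave at most 1 of 4 in any list. Of 2 endothelial genes with a listed start, Kdr was called in all 12 lists and Emcn in none. The part of the cell mixture in the calls was not tested.

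Other sarcomere genes were counted in the same way. Of 36 other Z-disc and titin-linked genes, 35 had peaks, in 241 sites, of which 36 (14.9%) were transient, 15 (6.22%) late-gained, 20 (8.3%) early-lost and 15 (6.22%) called in all lists. The shares of all regions were 14.7%, 3.8%, 9.56% and 8.62% in turn. Of the 25 with a listed start, 2 were called only within D1 to D8 (Ankrd2 and Ankrd23, relatives of Ankrd1), 6 in all lists and 4 in none. Over all genes these shares were 5.69%, 48.4% and 29.2%. At D15, 14 of these 25 starts were called, among them those of the intermediate filament gene Des and of the filamin gene Flnc. The share over all genes at D15 was 58.5%, and 3 of the 8 starts of the titin and Z-disc genes were called there.

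Genes of the filaments were counted next. Over all genes, 5.69% were called at the start only within D1 to D8, 48.4% in all lists and 29.2% in none. Of 8 thick filament starts, 3 were called only within D1 to D8 (Myh7, Myl7 and Mybpc3), 1 in all lists and 3 in none, and 1 was called at D15. Of 9 thin filament starts, 2 were called only within D1 to D8 (Actc1 and Tnni1), none in all lists, 4 in none, and 3 (Tnnt2, Tpm1 and Tmod1) were called at D10 and D15 but at neither 2i nor D0. Thin filament genes had 6 late-gained sites of 49 (12.2%) and 11 transient ones (22.4%), and thick filament genes 3 of 44 late-gained (6.82%) and 7 transient (15.9%). Of all regions, 3.8% were late-gained and 14.7% transient. None of these differences between lists of genes was tested.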

How the data were processed

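ATAC-seq libraries of 24 samples were processed on mm10 with MACS2 2.1.1, Bowtie2 2.3.2, Picard, SAMtools 1.5 and cutadapt 2.10, per the submitters' processing notes. For read shifting, depth and the pooling of replicates, settings were not given in the sources used. The deposited lists give each peak an interval, a summit offset, a display score (not used), a fold enrichment (a linear ratio), and a −log10 q-value, all from the authors' peak caller. The place of a peak among others was read inside its own list. Fold enrichments of different lists were set side by side without rescaling, for ranges, medians, figures and the strongest site of a gene. The lowest −log10 q was 1.30, a q near 0.05.

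Peaks were assigned with Python 3.11.15, pandas 2.3.3 and numpy 2.4.6 to RefSeq gene bodies of GRCm38.p6, the assembly of mm10, and merged where they overlapped by at least 1 bp. A gene's sites were named if late-gained, early-lost, called in 6 or more lists, at a start, or strongest in the gene; transient sites were described besides. Exons and introns were not examined. Members, classes and gene lists were chosen with earlier results of these data known. Myom1 and Myom2 are in both the Z-disc and thick filament lists. Scripts were tested on simulated data. Alternatives changed the q threshold, list lengths, distances, overlap, stages and lists used.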

Additional observations from a re-analysis of the deposited data

How the results depend on the processing

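Of 70 values recomputed under alternatives, 56 stayed within 1.5 times the main value in either direction, and 14 moved further. A move of this size can still lie within counting error. With a −log10 q of at least 5 there were 53 sites, of which 1 was late-gained, 4 early-lost, 6 transient and 3 called in all lists. With 31324 peaks in each list there were 52 sites, 2 late-gained and 5 transient. Assignment within 20 kb left 2 late-gained sites. The transient sites numbered 9 without the D7 list and 5 when 3 consecutive lists were asked for. D10 alone as the late stage gave 10 late-gained sites, and 2i or D0 alone as the early stage gave 13 or 14 early-lost sites. Shares of all regions under these alternatives are not given, so these changes cannot be read as particular to the genes. Start windows, the alternatives for starts and the omission of the D4 list were chosen after seeing the data. No paired analysis was possible because each time point has 1 list for both replicates, and for the same reason no replicate could be left out. Depth was unknown.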
